A study of Saccharomyces cerevisiae with 27 samples.

Results

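The earliest sample of a heat stress time course in the yeast Saccharomyces cerevisiae was compared with unstressed cells. The comparison holds 6 of the 27 arrays of the series, chosen by their labels. They are 3 arrays labelled as stress at 41 °C and 10 min, and 3 arrays of control cells at 28 °C and 0 min. All cells were of strain X2180-1A, a laboratory yeast, and carried no other treatment. They grew in aerated 500 ml batch fermentors on minimal medium with 2% glucose at pH 5.0. The stressed cultures were warmed when they had reached an OD600 of 0.5, and 41 °C was reached within 5 min, so that 10 min covers the warming as well as the stay at the final temperature. The series had 3 control cultures and 3 stressed cultures, and each array is 1 biological replicate. Biotin-labelled cRNA from 20 µg of total RNA was hybridised to one-colour Affymetrix arrays, so a value is a share of the RNA loaded, and more cells that make a transcript cannot be told apart from more of it per cell. Log2 folds of the 3 arrays at 30 min of heat against the same controls are given beside some genes. The comparison asks which transcripts had changed by the earliest sampling time and which had not.

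Yeast answers a rise in temperature within minutes. Heat shock factor 1 turns on chaperone genes, and the general stress factors Msn2 and Msn4, which protein kinase A holds back in growing cells, turn on genes for protection and for storage carbohydrates. Growth is curtailed at the same time, through less transcription of the genes that build ribosomes, a process that the TOR kinase and protein kinase A promote. Transporters of the plasma membrane, which are costly to make and exposed to the surroundings, are regulated both by nutrients and by stress.

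The 9335 probe sets gave 5656 genes for testing. Values are given as normalized signal, which is comparable between arrays for the same gene but not between genes, and changes as log2 folds of heat over control ± SE from limma. Folds were taken after adding an offset of 115 to the signal, which makes the folds of dim genes smaller. A gene is said not to have moved where the 95% interval of its log2 fold lay inside -0.5 to 0.5. Replicate arrays correlated with r of 0.983 to 0.994 in heat and of 0.994 to 0.997 in controls, and the median SD of a gene was 0.117 in heat and 0.0668 in controls on the log2 scale. The 19 probe sets for non-yeast transcripts are a measure of background. The geometric means of their deposited signals were 74.2, 71.3 and 47.3 on the heat arrays, against 71.5, 76.3 and 72.8 on the control arrays. These were taken before normalization, so they are an approximate mark for the normalized signals given below. Replicate 3 of heat had the lowest background. That array also had the lowest signal of the 3 heat arrays for 68.5% of the 425 genes that fell at least 2-fold, and for 19.2% of the 454 that rose as much, while it had the highest signal for 273 of the rises. Replicate 2 of heat was the lowest for 65.2% of the rises and the highest for 281 of the falls. The signal of a 3′ probe set over that of the 5′ one reads RNA integrity. For SRB4 it was 3.20 ± 0.21 in heat and 2.27 ± 0.24 in controls (SD, n = 3 each). For SPT15 it was 3.024 ± 0.655 and 2.264 ± 0.102, with a lowest heat array of 2.311 and a highest control array of 2.325. That of ACT1 was 0.987 ± 0.040 and 0.980 ± 0.013. The part of background and of these ratios in the results was not tested.

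Within 10 min, 4103 of the 5656 genes (72.5%) passed the threshold of an adjusted p under 0.05. Of these, 1911 (33.8% of the tested genes) were higher in heat and 2192 (38.8%) were lower. Most changes were small: the median log2 fold of all genes was -0.03, the median absolute fold was 0.38, and 879 genes (15.5%) changed at least 2-fold, 454 of them up (8.03%) and 425 down (7.51%). The rises reached further than the falls. Past 4-fold there were 117 rises and 47 falls, past 8-fold 35 rises and 2 falls, and past 16-fold 9 rises and 0 falls. The 3 heat arrays and the 3 control arrays did not overlap for 4143 genes (73.2%). The offset and the background limit how far a fall can reach, and also the size of a rise from a dim control. Their part in the difference between rises and falls was not tested. The plot of change against level shows the whole set.

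**Figure D1:**
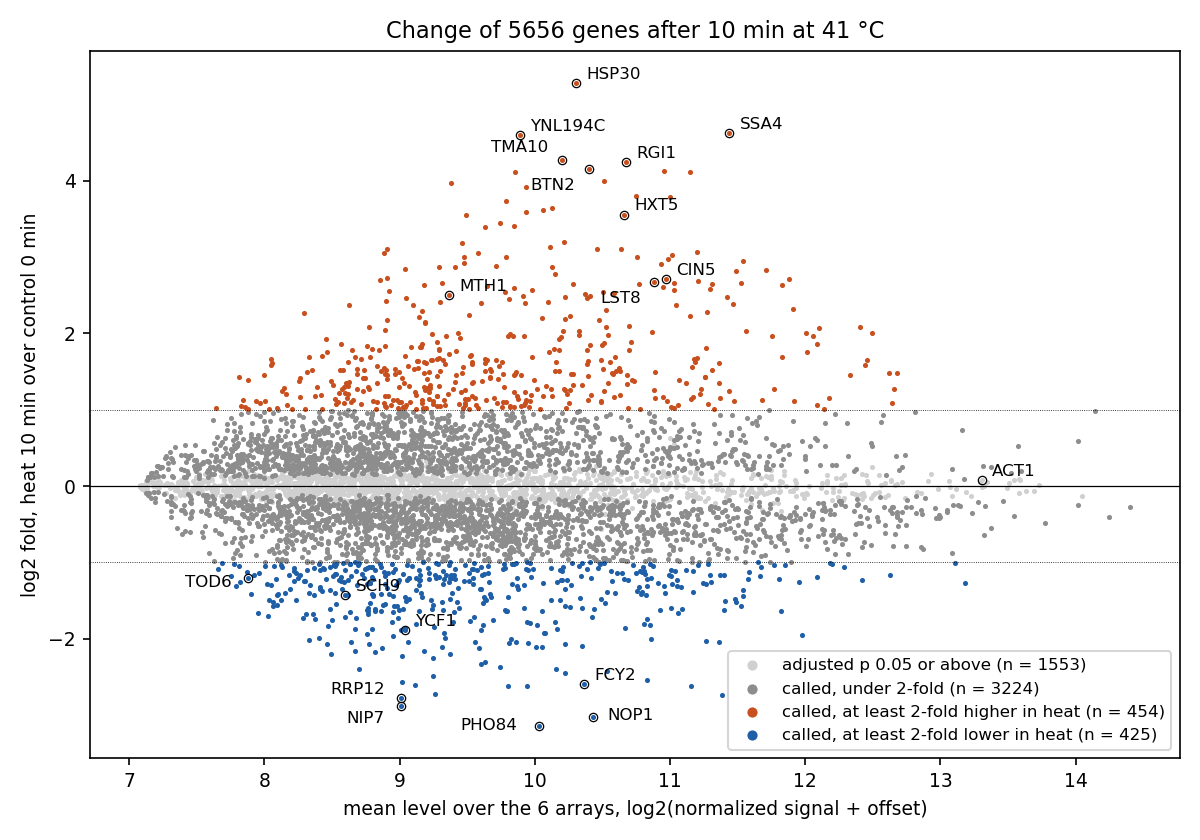
Each point is 1 of 5656 genes, with its mean level over the 6 arrays on the x axis (log2 of normalized signal plus offset) and its log2 fold of heat 10 min over control 0 min on the y axis. Rises reach a log2 fold of 5.28 (HSP30), while the largest fall is -3.14 (PHO84).

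Chaperones and other heat shock proteins were among the 15 genes that rose most. HSP30, a heat shock protein of the plasma membrane, had signals of 7758, 7818 and 7680 in heat, against 68.8, 87.6 and 107 in controls, a log2 fold of 5.28 ± 0.09 (adjusted p = 1.80e-22). Its control signals lay near the non-yeast background, so the size of the fold depends on the offset, and without an offset it was 6.49. SSA4, a stress-induced Hsp70 chaperone, stood well above background in both groups, with 13749, 13474 and 13749 in heat and 416, 466 and 455 in controls (4.62 ± 0.12). BTN2, which gathers misfolded proteins into deposits, had 5739, 5014 and 6006 in heat and 199, 214 and 202 in controls (4.15 ± 0.12). Small heat shock proteins, which hold unfolded proteins soluble, were among these genes as well. HSP26 had 8241, 7364 and 8971 in heat and 302, 346 and 439 in controls (4.13 ± 0.09), and HSP42 had 7590, 6834 and 8126 in heat and 419.9, 419 and 475 in controls (3.78 ± 0.10). For each of these 5 genes the lowest heat array lay several times above the highest control array.

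Among the other large rises were enzymes and proteins of the cell surface and the mitochondrion. CYC7, the stress isoform of cytochrome c, had 4206, 3076 and 4038 in heat and 100.2, 100.2 and 120.5 in controls (4.12 ± 0.11). SPI1, an anchored protein of the cell wall, had 9678, 9214 and 9168 in heat and 377, 481 and 438 in controls (4.12 ± 0.12). CTT1, the cytosolic catalase that removes hydrogen peroxide, had 4018, 3221 and 3915 in heat and 126, 133 and 150.0 in controls (3.92 ± 0.13). GSY1, a glycogen synthase, had 3163, 2837 and 3336 in heat and 124, 128 and 126 in controls (3.74 ± 0.08), with heat arrays that differed little from each other. SOL4, a 6-phosphogluconolactonase, had 5948, 5160 and 6119 in heat and 230.4, 249.9 and 270.2 in controls. TMA10, which associates with ribosomes, rose by 4.27 ± 0.15, and RGI1, which is needed for respiratory growth, by 4.24 ± 0.11. SPG4 (3.96 ± 0.13), a gene of stationary phase survival, was below background in controls, where it had 53.6, 47.6 and 58.7, and its fold without an offset was 5.57, while RTC3 rose by 3.80 ± 0.09. In 12 of the 15 largest rises replicate 2 was the lowest heat array.

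**Figure D2:**
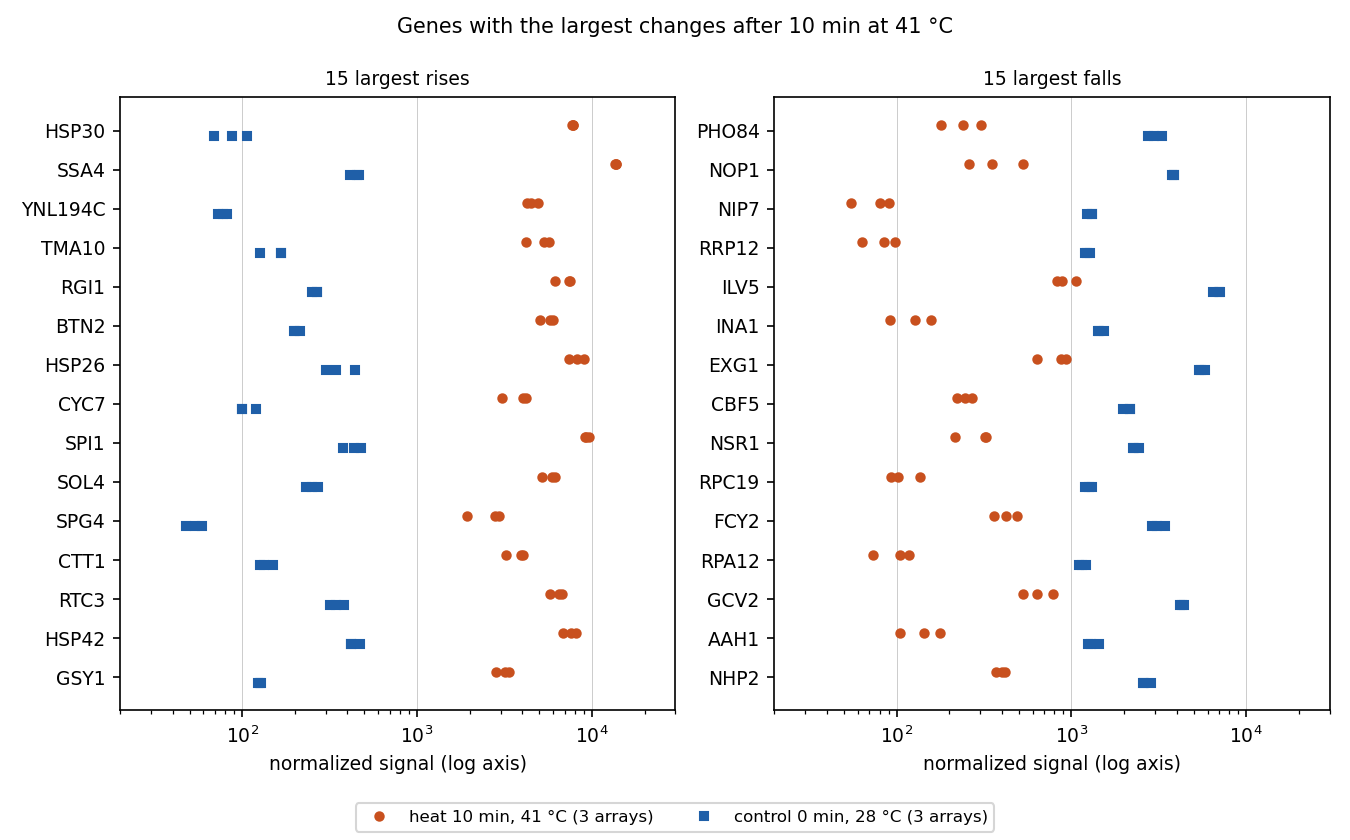
Normalized signal on a log axis for the 15 largest rises and the 15 largest falls, with the 3 heat arrays drawn above the 3 control arrays of each gene. The heat arrays and control arrays do not overlap for any of the 30 genes, as the rule that chose them required.

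Of the 15 largest falls, 8 were genes that make ribosomes or transcribe ribosomal RNA. NOP1, the fibrillarin that methylates ribosomal RNA, had 352, 526 and 258 in heat and 3855, 3876 and 3746 in controls (-3.03 ± 0.13, adjusted p = 7.79e-16). CBF5 and NHP2, proteins of the particles that form pseudouridine in ribosomal RNA, fell by similar amounts. CBF5 had 271, 246 and 220.3 in heat and 2166, 1973 and 2174 in controls (-2.62 ± 0.14), and NHP2 had 417, 401 and 371 in heat and 2610, 2579 and 2848 in controls (-2.45 ± 0.10). NSR1, the yeast nucleolin, had 319, 323 and 216 in heat and 2236, 2447 and 2290 in controls (-2.62 ± 0.10). NIP7 (-2.88 ± 0.08) and RRP12 (-2.78 ± 0.14), both needed for ribosomal subunits, were at or near background in heat, where NIP7 had 80.3, 90.6 and 54.7 and RRP12 had 63.6, 84.7 and 98.0. Their folds are therefore bounded by the background, and without an offset they were -4.13 and -3.93. The polymerase subunits RPC19 (-2.61 ± 0.10), shared by RNA polymerases I and III, and RPA12 (-2.57 ± 0.09), of polymerase I, completed the group.

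The other large falls included genes of uptake and metabolism. PHO84, the high-affinity phosphate transporter, had 239, 302 and 180.5 in heat and 2981, 3290 and 2735 in controls (-3.14 ± 0.16, adjusted p = 2.96e-14). ILV5, an enzyme of branched-chain amino acid synthesis, had 888, 1063 and 823 in heat and 6972, 7027 and 6469 in controls (-2.74 ± 0.08). GCV2, a subunit of glycine decarboxylase, had 632, 782 and 528 in heat and 4169, 4285 and 4390 in controls (-2.54 ± 0.09). These genes remained well above background in heat. EXG1, a glucanase of the cell wall, fell by 2.62 on the log2 scale, AAH1, the adenine deaminase, by 2.49, and INA1 by 2.72. In 13 of the 15 largest falls replicate 3 was the lowest heat array. Leaving that array out gave 829 genes past 2-fold, and 804 of these belonged to the 879.

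Transporters were described through 10 lists with 220 measured genes. Of these, 47 (21.4%) rose and 110 (50.0%) fell, and 14 rose and 31 fell at least 2-fold. In the 4 lists of nutrient uptake other than sugar, 11 of 88 genes rose (12.5%) and 51 fell (58.0%), against 33.8% and 38.8% of all tested genes. Their median log2 fold was -0.38. These 2 shares of all tested genes are also the ones to set beside the counts of each list below. Each of the 10 called sugar transporters rose, HXT6 and HXT7 among them. The plot of all lists shows every member.

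**Figure D3:**
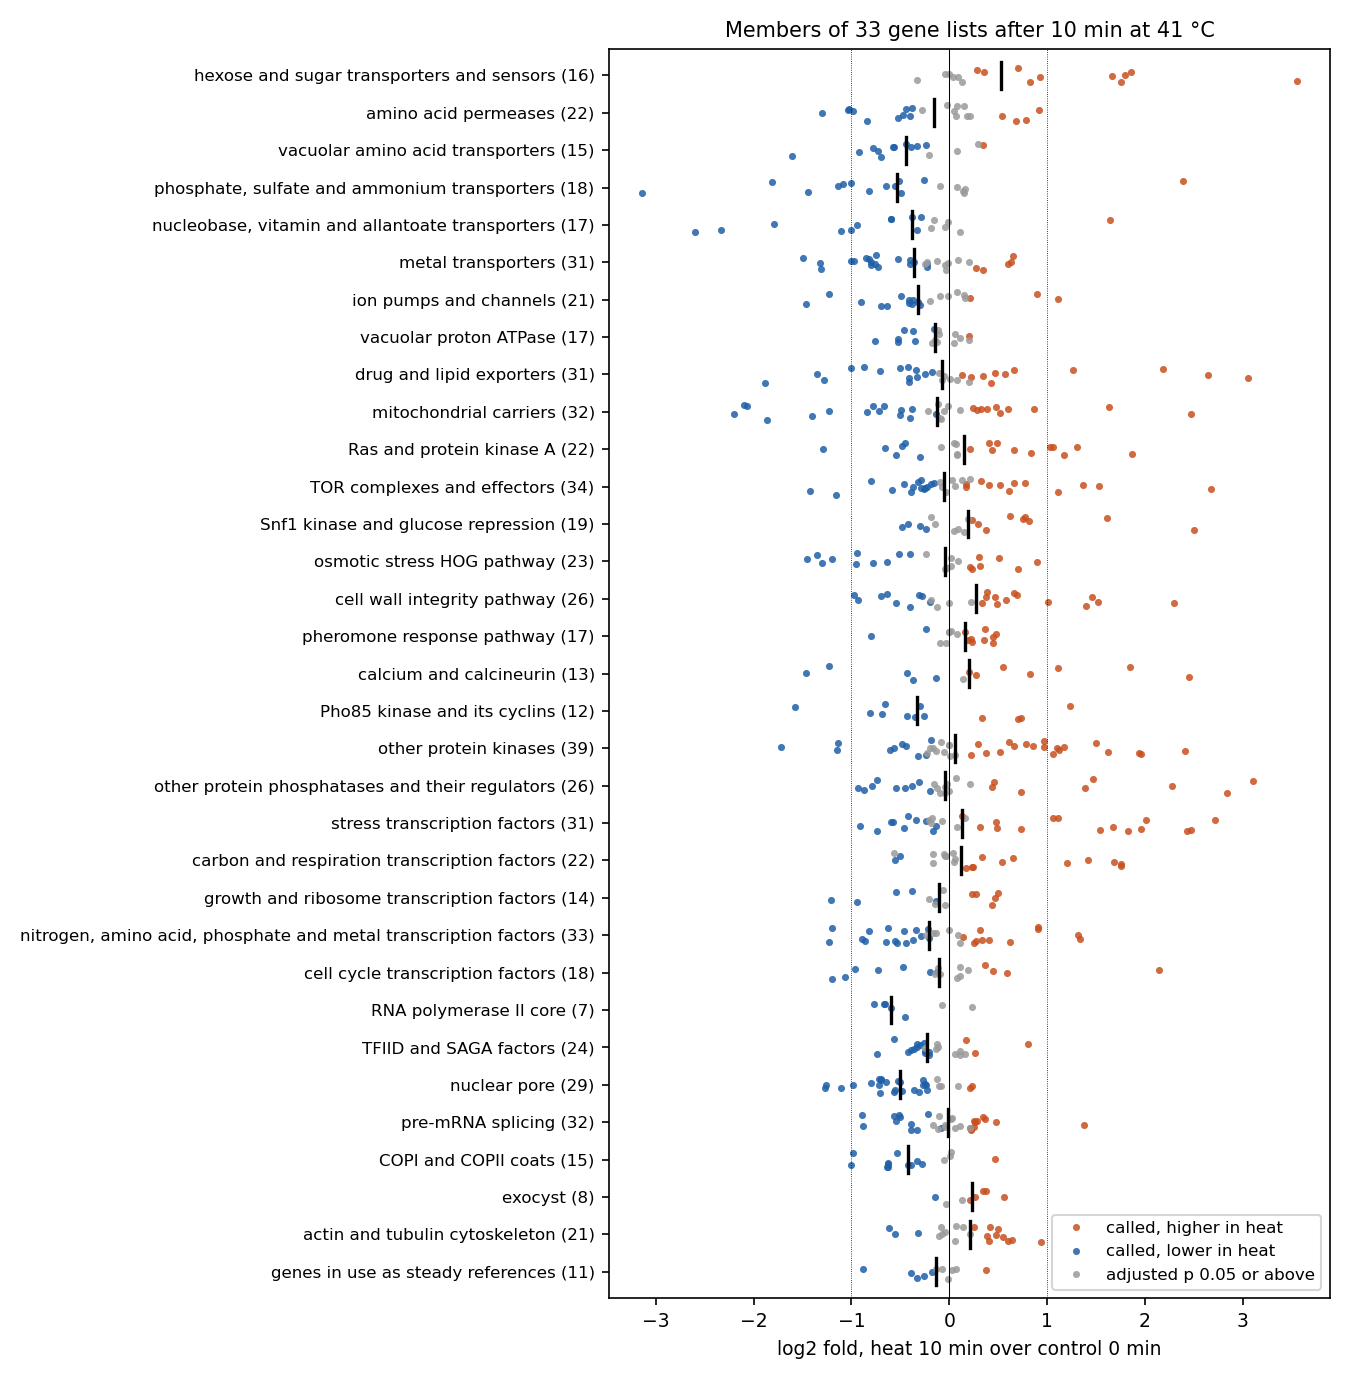
Each point is a measured member of a gene list, with its log2 fold of heat 10 min over control 0 min on the x axis, and the black bar is the median of the list. The number of measured members stands in brackets, and the list medians run between -0.60 and 0.53.

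Of the 16 measured hexose and sugar transporters and sensors, 10 rose, 0 fell and 6 gave no call, and the median log2 fold was 0.53. At an unadjusted p under 0.05 the number that fell was 0. The uncalled members include a transporter with 20, 20 and 20 in heat and 20, 22.1 and 20 in controls. These signals lay below the non-yeast background, so a fall could not be measured for it. HXT5, a hexose transporter made when growth slows, had 5090, 5836 and 5422 in heat and 322, 398 and 356 in controls (3.56 ± 0.10, adjusted p = 8.72e-19). HXT4, a high-affinity hexose transporter, had 1512, 1335 and 1076 in heat and 314, 377 and 301 in controls (1.67 ± 0.15). MAL11, a maltose permease, had 1198, 1005 and 958 in heat and 188, 268 and 210.2 in controls (1.79 ± 0.12). HXT6 (1.86 ± 0.16) and HXT7 (1.76 ± 0.10), high-affinity transporters with nearly identical sequences, share probe sequence, and with the pair counted once 9 of 15 rose. The low-affinity transporter HXT3 had not moved, with 6363, 6318 and 5739 in heat and 6006, 5987 and 5927 in controls and a log2 fold of 0.04 ± 0.11. At 30 min, measured against the same control arrays, HXT3 was at -2.15 ± 0.11, HXT4 at 0.07 ± 0.15 and HXT5 at 4.25 ± 0.10.

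Amino acid permeases were mixed: of 22 measured, 10 fell, 4 rose and 8 gave no call. The histidine permease HIP1 had 525, 571 and 424 in heat and 1334, 1672 and 1244 in controls (-1.30 ± 0.12). The methionine permease MUP1 (-1.02 ± 0.15), the S-adenosylmethionine permease SAM3 (-1.03 ± 0.13), whose probe set may be shared with other genes, and the tryptophan permease TAT2 (-0.98 ± 0.09, and -1.59 without an offset) fell as well. AGP2 rose, with 536, 618 and 462 in heat and 218, 287 and 191 in controls (0.92 ± 0.12), as did the proline permease PUT4 (0.79). GNP1, the glutamine permease, had a log2 fold of 0.04 ± 0.11 at 10 min, and one of -1.65 ± 0.11 at 30 min against the same control arrays. Of 15 vacuolar amino acid transporters, 1 rose (0 without replicate 1 or 2 of heat, or 1 or 3 of the control) and 11 fell, led by YPQ1, with 632, 805 and 490.3 in heat and 2136, 2368 and 1978 in controls (-1.60 ± 0.13).

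Transporters of phosphate, sulfate and ammonium fell in 12 of 18 cases and rose in 1. Both sulfate permeases fell, SUL2 with 886, 956 and 709 in heat and 3218, 3437 and 3101 in controls (-1.81 ± 0.10) while SUL1 fell by 1.44 on the log2 scale. The low-affinity phosphate transporters PHO90 (-1.14 ± 0.10) and PHO87 (-1.09) fell with PHO84. The member that rose, ATO2, a putative ammonium exporter, had 1961, 1634 and 1448 in heat and 207, 251 and 216 in controls (2.39 ± 0.16). The ammonium permease MEP2 had not moved, with 7251, 6712 and 7251 in heat and 7634, 7865 and 7100 in controls (-0.09 ± 0.14).

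Of 17 transporters of nucleobases, vitamins and allantoate, 11 fell and 1 rose (2 without replicate 3 of heat). FCY2, the purine and cytosine permease, had 422, 488 and 359.5 in heat and 3096, 3410 and 2882 in controls (-2.59 ± 0.15). FUI1, the uridine permease, had 238, 287 and 179 in heat and 1586, 1853 and 1476 in controls (-2.33 ± 0.14). The biotin transporter VHT1 (-1.79 ± 0.12) and the uracil permease FUR4 (-1.10 ± 0.10) were lower too, while DAL4, the allantoin permease, had 2341, 2218 and 2218 in heat and 618, 690.3 and 629 in controls (1.64 ± 0.16). Of 31 metal transporters, 5 rose and 18 fell, against 33.8% and 38.8% of all tested genes. FTR1 and FET3, the permease and the oxidase of high-affinity iron uptake, fell together, FTR1 with 596, 612 and 451 in heat and 1717, 1906 and 1649 in controls (-1.49 ± 0.09) and FET3 by 1.32. The vacuolar zinc transporter ZRC1 fell by 1.31.

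Of 21 ion pumps and channels, 3 rose and 12 fell, against 33.8% and 38.8% of all tested genes. CCH1 and MID1, subunits of the calcium channel of the plasma membrane, fell, CCH1 with 138, 158 and 130.4 in heat and 469.6, 508 and 486 in controls (-1.23 ± 0.08) and MID1 with 201, 229 and 178 in heat and 748, 836 and 697 in controls (-1.46 ± 0.10). PMC1, the pump that moves calcium into the vacuole, had 2076, 1855 and 2078 in heat and 828, 965 and 802 in controls (1.11 ± 0.11). The proton pump PMA1, the main pump of the plasma membrane, fell by 0.31. The vacuolar proton ATPase moved little: of 17 subunits and assembly factors, 1 rose, 7 fell and 11 had a 95% interval inside -0.5 to 0.5. The count of rises was 0 without replicate 3 of heat or without replicate 1 or 2 of the control, and 2 without replicate 2 of heat.

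Of 31 drug and lipid exporters, 11 were higher and 14 lower, not far from the shares of all tested genes (33.8% and 38.8%). RSB1, which moves sphingoid bases out of the membrane, had 2272, 2220 and 1828 in heat and 149.9, 170.1 and 132 in controls (3.06 ± 0.13). TPO4, a polyamine exporter, had 6155, 6439 and 6071 in heat and 899.9, 983 and 824 in controls (2.64 ± 0.08). The multidrug transporter PDR15 rose by 2.19 ± 0.11. YCF1, which moves glutathione conjugates into the vacuole, fell, with 156, 195 and 129.6 in heat and 927, 872 and 888 in controls (-1.88 ± 0.09). Of 32 mitochondrial carriers, 10 were higher and 15 lower, against the same 33.8% and 38.8% of all tested genes. PIC2, a carrier of phosphate and copper, had 2997, 2495 and 2628 in heat and 355, 431 and 388 in controls (2.48 ± 0.09). YHM2 (-2.10 ± 0.09), CTP1 (-2.07 ± 0.09) and OAC1 (-1.86 ± 0.09), carriers of citrate or oxaloacetate, fell.

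Of 231 measured genes in 10 lists, 99 rose (42.9%) and 78 fell (33.8%), and 34 rose and 13 fell at least 2-fold (14.7% and 5.63%, against 8.03% and 7.51% of all tested genes). In the Ras and protein kinase A list, 11 of 22 rose and 6 fell, against 33.8% and 38.8% of all tested genes. YAK1, a kinase that opposes growth and is held back by protein kinase A, had 2548, 2556 and 2925 in heat and 747, 571 and 633 in controls (1.87 ± 0.07), on a probe set that may be shared with other genes. The catalytic subunit TPK2 (1.31 ± 0.07) and BCY1 (1.06 ± 0.08), the subunit that inhibits it, both rose. The Ras paralogs moved apart: RAS2 had 2932, 2355 and 3353 in heat and 1252, 1098 and 1270 in controls (1.17 ± 0.13), and RAS1 had 280.4, 264 and 199.6 in heat and 762, 753 and 793 in controls (-1.29 ± 0.09). The kinase RIM15 (0.05 ± 0.07), which promotes entry into quiescence, and the glucose receptor GPR1 (0.07 ± 0.10) had not moved.

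Of 34 genes of the TOR complexes and their effectors, 12 rose, 15 fell and 18 had an interval inside -0.5 to 0.5. The shares that rose and fell were near those of all tested genes (33.8% and 38.8%), of which 43.9% had such an interval. LST8, a subunit of both TOR complexes, had 4680, 4217 and 5146 in heat and 619.8, 643 and 636 in controls (2.68 ± 0.08). SCH9, the kinase through which TOR complex 1 promotes growth, had 124, 129.8 and 111 in heat and 545, 519.6 and 498 in controls (-1.43 ± 0.07). YPK2 (1.53 ± 0.09) and SLM1 (1.37 ± 0.08), effectors of TOR complex 2, rose. In the Snf1 list, the glucose repression pathway, 9 of 19 rose and 4 fell. MTH1, which with Rgt1 represses hexose transporter genes, had 1668, 1141 and 1604 in heat and 158, 147 and 179.7 in controls (2.50 ± 0.12), while its log2 fold at 30 min against the same controls was 0.22 ± 0.12. TOS3, a kinase that activates Snf1, rose by 1.62 ± 0.08.

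In the HOG pathway, which answers osmotic stress, 7 of 23 rose and 10 fell, shares near those of all tested genes (33.8% and 38.8%), and the 4 members past 2-fold all fell. They included the membrane sensors MSB2, with 238, 261 and 199 in heat and 804, 892 and 817 in controls (-1.45 ± 0.10), SHO1 (-1.30 ± 0.08) and HKR1 (-1.20 ± 0.08), and the phosphatase PTP3 (-1.35 ± 0.06). PTP3 was near background in heat, with 63.9, 70.8 and 67.9, and its fold without an offset was -2.38. The kinase PBS2 (0.02 ± 0.09) had not moved. In the cell wall integrity pathway 13 of 26 rose and 9 fell, and the 5 members past 2-fold all rose. SDP1, the phosphatase of its MAP kinase Slt2, had 1175, 1131 and 1160 in heat and 141, 154 and 137 in controls (2.30 ± 0.09). The surface sensors WSC4 (1.53 ± 0.08, and 2.29 without an offset) and MTL1 (1.46 ± 0.12) and ROM1 (1.40 ± 0.08), an activator of the Rho1 GTPase, were others. The difference between the pathways was not tested. In the pheromone pathway 9 of 17 rose and 2 fell, none of them by 2-fold. The median log2 fold was 0.16, and 11 of the 17 had an interval inside -0.5 to 0.5.

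Calcium signalling genes rose in 7 of 13 cases and fell in 5, against 33.8% and 38.8% of all tested genes. The calmodulin-dependent kinase CMK2 had 1787, 1685 and 2571 in heat and 284, 267 and 255 in controls (2.45 ± 0.13), with replicate 3 of heat highest, and RCN2, a regulator of calcineurin, rose by 1.85 ± 0.10. Of the Pho85 kinase and its cyclins, 4 of 12 rose and 8 fell. PCL6 (1.24 ± 0.09), which takes part in glycogen control, rose, and PCL1 (-1.58 ± 0.16), a cyclin of early cell cycle, fell to 37.1, 45.1 and 36.5 in heat, below the non-yeast background, against 352, 335 and 354 in controls. Its fold is bounded by the background and was -3.14 without an offset.

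Other kinases rose in 19 of 39 cases and fell in 10, against 33.8% and 38.8% of all tested genes. PRR2 had 1424, 1144 and 1455 in heat and 149.6, 159 and 166 in controls (2.41 ± 0.07), and MRK1, of the glycogen synthase kinase family, had 1328, 1044 and 1140 in heat and 195, 228 and 219 in controls (1.96 ± 0.08). SKS1 fell by 1.72 and was not far above background in heat, with 111, 109 and 76.4. Without an offset its fold was -2.59. Of 26 phosphatases and their regulators 8 rose and 9 fell, and the 5 members past 2-fold were all subunits or regulators of the phosphatase Glc7. GAC1, which directs Glc7 to glycogen synthase, had 1572, 1155 and 1186 in heat and 48.7, 52.5 and 43.0 in controls (3.11 ± 0.15). PIG2 had 1319, 1001 and 1617 in heat and 82.9, 79.2 and 81.6 in controls (2.84 ± 0.13), GIP2 rose by 2.27 ± 0.08, SDS22 by 1.47 ± 0.11 and GIP1 by 1.39 ± 0.07. GAC1, GIP2 and GIP1 were below the non-yeast background in controls and PIG2 just above it, so the sizes of these folds depend on the offset: without one, GAC1 was at 4.75, PIG2 at 3.99, GIP2 at 4.38 and GIP1 at 3.12. Another such regulator, PIG1, had not moved (0.00 ± 0.05). The catalytic subunit GLC7 itself rose by 0.78 ± 0.15.

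Of 118 transcription factor genes in 5 lists, 46 rose (39.0%) and 40 fell (33.9%), with 18 rises (15.3%) and 5 falls (4.24%) of at least 2-fold. Of all tested genes 33.8% rose and 38.8% fell, and 8.03% and 7.51% did so by 2-fold or more. Among 31 stress factors, 15 rose and 10 fell, and 10 rose by 2-fold or more. CIN5, a factor of salt and drug tolerance, had 5103, 4461 and 5578 in heat and 677, 618 and 711 in controls (2.72 ± 0.16). XBP1, a repressor of cell cycle genes under stress, had 1301, 1067 and 1030 in heat and 98.3, 122 and 108 in controls (2.47 ± 0.13). The glucose-dependent repressors NRG1 and NRG2 both rose, NRG1 with 939, 892 and 1176 in heat and 86.5, 79.3 and 108 in controls (2.43 ± 0.15) and NRG2 with 1710, 1563 and 2178 in heat and 379, 362 and 388 in controls (1.96 ± 0.12). At 30 min against the same controls, NRG1 was at 2.29 ± 0.15 and NRG2 at 0.32 ± 0.12. YAP6 (0.08 ± 0.05, and 0.21 ± 0.12 without an offset) had not moved.

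Factors of carbon use and respiration rose in 11 of 22 cases and fell in 2, or in 4 without replicate 1 or without replicate 3 of heat. CAT8 and SIP4, activators of gluconeogenic genes, were near or below background in controls. CAT8 had 547, 455 and 607 in heat and 69.1, 73.7 and 85.7 in controls (1.76 ± 0.08), and SIP4 had 408, 417 and 577 in heat and 67.0, 63.6 and 61.5 in controls (1.69 ± 0.08). Without an offset their folds were 2.81 and 2.85. HAP4, the regulated subunit of the activator of respiratory genes, had 1845, 1736 and 2174 in heat and 489, 452 and 519 in controls (1.75 ± 0.13), and its fold at 30 min against the same controls was -0.09 ± 0.13. ADR1, which activates genes for ethanol use, rose by 1.42 ± 0.09. Of 14 factors of growth and ribosome genes, 5 rose and 5 fell, 1 of them at least 2-fold, and 3 rose without replicate 3 of heat or without replicate 2 of the control. TOD6, a repressor of ribosome biogenesis genes, had 37.8, 35.5 and 44.2 in heat, below background, and 251, 228 and 248 in controls (-1.21 ± 0.07, and -2.63 without an offset). IFH1, an activator of ribosomal protein genes, fell by 0.94, and RAP1 (-0.06 ± 0.07) had not moved.

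Of 33 factors of nitrogen, amino acid, phosphate and metal metabolism, 11 rose and 16 fell, against 33.8% and 38.8% of all tested genes. DAL80, a repressor of nitrogen catabolic genes, had 2400, 2142 and 2993 in heat and 942, 832 and 986 in controls (1.33 ± 0.15), and CUP2, the copper-responsive activator, rose by 1.31 ± 0.07. MET28 (-1.23 ± 0.09), of sulfur metabolism, and OPI1 (-1.20 ± 0.08), the repressor of phospholipid genes, fell. Of 18 cell cycle factors, 4 rose and 7 fell. TOS8 had 1126, 957 and 1271 in heat and 163, 161 and 160.4 in controls (2.15 ± 0.11), while the repressors YOX1 (-1.20 ± 0.09) and YHP1 (-1.06 ± 0.08) fell. YHP1 was near background in heat, with 87.6, 80.0 and 68.8, and without an offset it was at -1.89 and YOX1 at -1.68.

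Genes that the gene table names only by their systematic name numbered 522 among the tested genes, of which 211 rose and 112 fell. They included 72 tRNA genes and 6 pseudogenes, which lack a common name for other reasons than an unknown function, so the 444 protein-coding genes were also counted alone, a choice made after the data had been seen. Of these 444, 185 rose (41.7%) and 95 fell (21.4%), and 60 rose (13.5%) and 16 fell (3.60%) at least 2-fold. Of the 5042 protein-coding genes with a common name, 378 rose (7.50%) and 409 fell (8.11%) as much. The unnamed genes were dimmer, with 61.9% at or below the median level against 48.8% of the named ones. The next shares are of genes of all types, tRNA genes included. Among those above the median level, 38 of the 210 with only a systematic name (18.1%) and 238 of the 2618 others (9.1%) rose at least 2-fold.

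YNL194C had 4903, 4493 and 4272 in heat and 73.2, 82.3 and 77.6 in controls, near background, a log2 fold of 4.60 ± 0.15. Its neighbour in the gene order, YNL195C, rose too, with 2129, 1794 and 1637 in heat and 136, 142 and 151 in controls (2.92 ± 0.11). YMR196W had 3437, 3025 and 4088 in heat and 277, 273 and 286 in controls (3.19 ± 0.10). The control arrays of YMR196W lay close together and far from heat. YLR177W had 5119, 4810 and 5024 in heat and 739, 754 and 741 in controls (2.57 ± 0.07), next to TFS1, a carboxypeptidase inhibitor, which rose by 3.03 ± 0.07. YKL091C (2.52 ± 0.07), YNR014W (2.46 ± 0.12), YOL153C (2.38 ± 0.11), YPL247C (2.31 ± 0.10) and YGR161W-C (2.09 ± 0.11) rose as well. YOL153C lay below the non-yeast background in controls, with 54.7, 70.9 and 49.1, and its fold without an offset was 3.77. The neighbours of YOL153C, ZPS1 and FRE7, had log2 folds of -0.17 ± 0.13 and -0.07 ± 0.05 and did not pass the test. Both neighbours of YNR014W were called lower (-0.512 ± 0.095 and -0.430 ± 0.083), as was 1 neighbour of YPL247C (-1.205 ± 0.117). Whether neighbours move together was not tested. YCL048W-A had 1259, 1104 and 966 in heat and 144, 163 and 138 in controls (2.21 ± 0.11), and its fold at 30 min against the same controls was 4.51 ± 0.11.

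The falls among the unnamed genes were smaller. YML018C had 390.1, 454 and 312 in heat and 2486, 2571 and 2474 in controls (-2.40 ± 0.11). YJR124C had 358, 429 and 302 in heat and 1267, 1258 and 1164 in controls (-1.50 ± 0.10), and YNL095C had 415, 418 and 270.2 in heat and 1164, 1182 and 1221 in controls (-1.45 ± 0.10). The folds of YBL081W, YBR220C, YJL193W and YCL002C lay between -1.41 and -1.21. YKL068W-A had 149.9, 200.2 and 141 in heat and 609, 599 and 488 in controls (-1.29 ± 0.13), and at 30 min its fold against the same controls was 0.12 ± 0.13. Replicate 3 was the lowest heat array for each of these 8 genes.

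**Figure D4:**
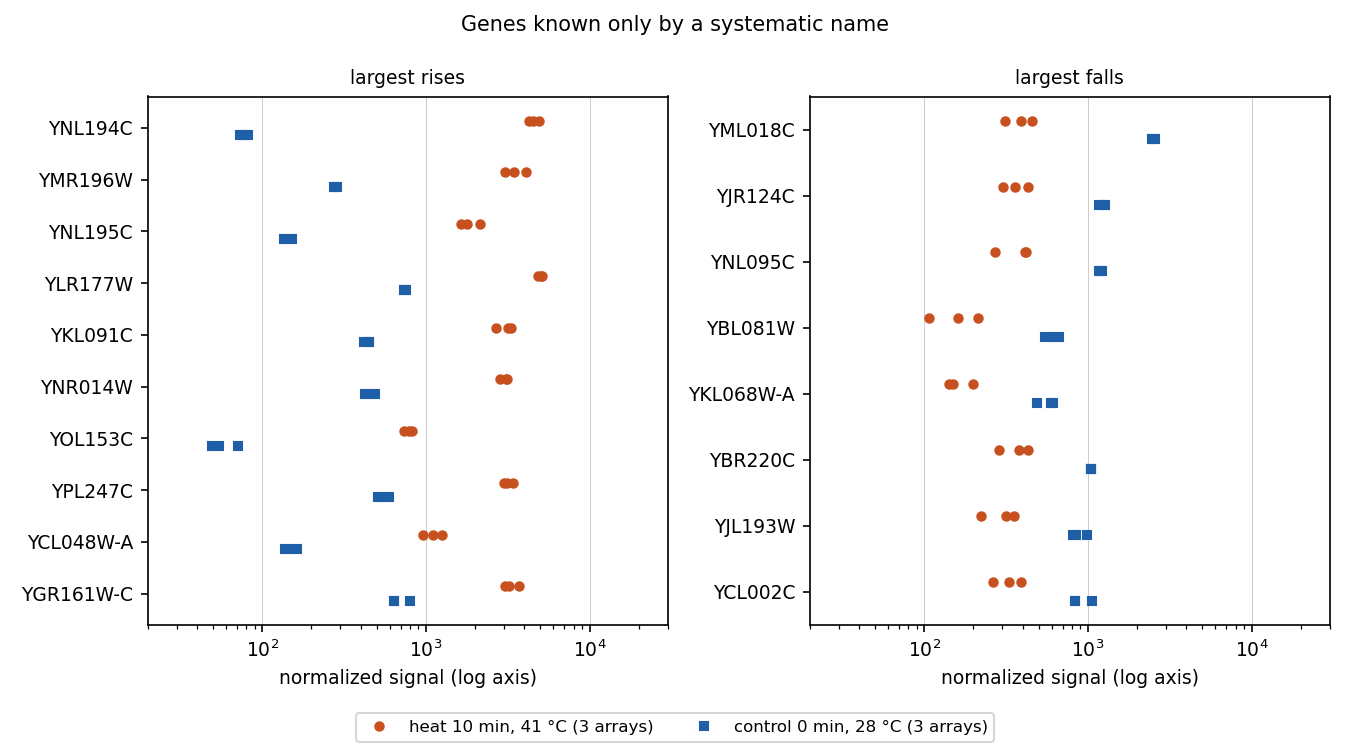
Normalized signal on a log axis for the 10 largest rises and the 8 largest falls among genes with only a systematic name, with the 3 heat arrays drawn above the 3 control arrays of each gene. The rises reach a log2 fold of 4.60 (YNL194C) and the falls -2.40 (YML018C).

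A p above the threshold does not show a lack of change, so genes that had not moved were counted by their interval. There were 2483 of them (43.9%), and 998 of these were called all the same, with small folds. Of the 1553 genes that did not pass the test, 1485 had such an interval and for 68 the interval was too wide to say. Genes above the median level met the condition in 36.8% of cases and dimmer genes in 51.0%, and the offset draws the folds of dim genes towards 0. Among the genes inside the interval, the 8 of highest signal were CCW12, RPS26A and 6 genes of glycolysis and fermentation. CCW12, a cell wall mannoprotein, had 18944, 20929 and 18944 in heat and 25251, 25251 and 20929 in controls (-0.27 ± 0.07), and RPS26A was at -0.25 ± 0.07 on a probe set that may be shared. Both passed the test, but CCW12 did not with median scaling (-0.09) and RPS26A did not with median scaling or with the values as deposited. PGK1 had 13474, 12838 and 13251 in heat and 11281, 11693 and 11427 in controls (0.20 ± 0.05), and CDC19, pyruvate kinase, had 11951, 12661 and 12318 in heat and 12838, 13474 and 12318 in controls (-0.06 ± 0.05). ADH1 (0.08 ± 0.05) and TPI1 (0.18 ± 0.04) were alike in this, as were ENO2 (0.01 ± 0.07) and TDH3 (-0.14 ± 0.07), whose probe sets may be shared with near-identical copies. Equal values recur on different arrays because the normalization gives every array the same set of values.

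Genes used as steady references in expression studies did not all hold still. Of 11 measured, 1 rose, 5 fell and 7 had an interval inside -0.5 to 0.5. Without replicate 2 of the control 3 fell. ACT1, actin, had 10935, 9996 and 9910 in heat and 9273, 10264 and 9757 in controls (0.07 ± 0.05). IPP1 (0.03 ± 0.06), SEC65 (-0.01 ± 0.09) and TUB1 (-0.07 ± 0.10) did not pass the test. ALG9, a mannosyltransferase that is a common reference, fell, with 978, 1188 and 935 in heat and 1933, 2207 and 1856 in controls (-0.88 ± 0.10, adjusted p = 2.63e-08). UBC6 (0.38 ± 0.09) rose and TAF10 (-0.33 ± 0.09) fell by less than 2-fold.

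Of 136 genes of general cell machinery in 7 lists, 32 rose and 67 fell, but 1 rose and 4 fell at least 2-fold, and 72 (52.9%) had an interval inside -0.5 to 0.5. These are 23.5% up and 49.3% down, against 33.8% and 38.8% of all tested genes, of which 43.9% had such an interval. The nuclear pore was the list among them with most falls, 23 of 29, such as NUP100 with 148, 175 and 183 in heat and 573, 575 and 555 in controls (-1.27 ± 0.08). All 5 called subunits of the RNA polymerase II core, of 7 measured, fell, RPB2 by 0.77 and RPO21 by 0.67, and 1 subunit rose without replicate 1 or 2 of heat or replicate 1 of the control. The coats of transport vesicles fell in 11 of 15 cases. Of 8 exocyst subunits, 5 were called higher, by 0.21 to 0.56, and 1 lower, but 6 had an interval inside -0.5 to 0.5. In the actin and tubulin list 10 of 21 rose and 3 fell, with the tropomyosins TPM1 (0.65 ± 0.12) and TPM2 (0.94 ± 0.09) higher and the tubulins TUB3 (-0.56 ± 0.08) and TUB4 (-0.61 ± 0.10) lower. In splicing, 11 of 32 rose and 11 fell, and PRP46 (1.37 ± 0.08) alone passed 2-fold.

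Some genes that had not moved at 10 min had moved at 30 min, a comparison that uses the same control arrays and is given as values only. From the 37 such genes that were at least 2-fold higher at 30 min and the 116 that were lower, the 8 largest of each were taken. Of the 116, 33 (28.4%) were ribosomal protein genes. Of 75 measured genes named RPL or RPS, 58 fell at 10 min, 8 of them at least 2-fold, with a median log2 fold of -0.35 (38.8% of all tested genes fell). RPL15B rose, by 1.02 ± 0.15. The interval lay inside -0.5 to 0.5 for 33 of the 75 (44.0%), close to the 43.9% of all tested genes. At 30 min 73 of the 75 were at least 2-fold lower and the median was -2.32. RPL15A had 4771, 5135 and 5798 in heat at 10 min and 5889, 5174 and 5709 in controls (-0.10 ± 0.11), and its fold at 30 min was -2.59 ± 0.11. In all, 30 of the 75 genes lie on probe sets that may be shared with a near-identical copy.

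Genes of lysine synthesis were also among the 8 largest late falls. LYS20, a homocitrate synthase, had 7634, 8719 and 8077 in heat at 10 min and 9025, 10076 and 9910 in controls (-0.25 ± 0.09), and LYS9 had 4237, 4858 and 4595 in heat and 5439, 5062 and 5024 in controls (-0.18 ± 0.10). At 30 min their folds were -2.61 ± 0.09 and -2.56 ± 0.10. ARO4, of aromatic amino acid synthesis, was at -0.22 ± 0.09 at 10 min and -2.50 ± 0.09 at 30 min. Among the late rises, PIR3, a cell wall protein, had 569, 576 and 444 in heat at 10 min and 414, 532 and 381 in controls (0.21 ± 0.11), with a fold of 2.14 ± 0.11 at 30 min. POM33 was at 0.30 ± 0.10 and 1.75 ± 0.10, and SHH3 at -0.12 ± 0.11 and 1.91 ± 0.11, at these times.

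**Figure D5:**
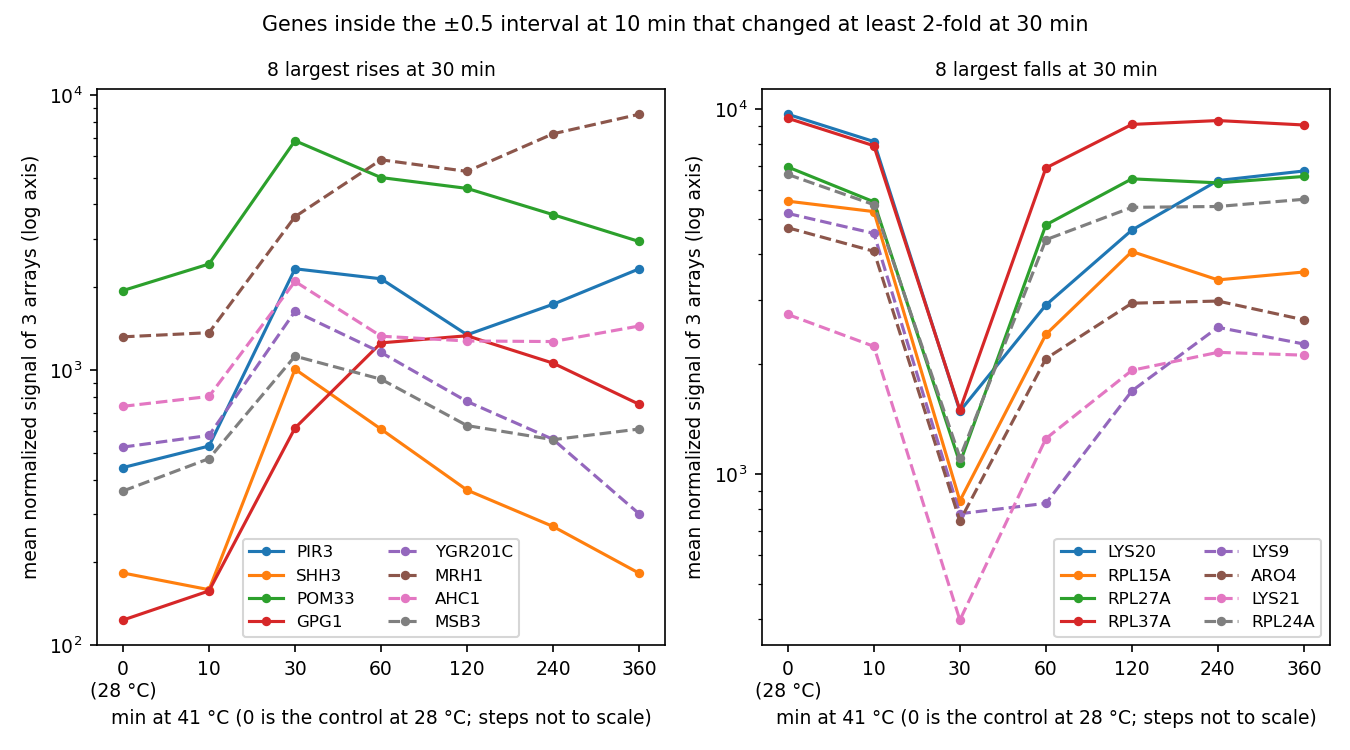
Mean normalized signal of 3 arrays (log axis) of the control at 0 min and of 6 heat times for 8 late rises and 8 late falls, 1 line per gene. The lines run nearly level between the control and 10 min and move away at 30 min, as the rule that chose them required. At 30 min PIR3 has a log2 fold of 2.14 and LYS20 one of -2.61.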

How the data were processed

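The authors deposited an intensity on a linear scale for every probe set of an array, computed with MAS5 per the submitters' processing notes. Neither the MAS5 version nor the target of its scaling is stated in the labels. The lowest deposited intensity was 20. Of 9335 probe sets, 60 were array controls, and the probe annotation gave 6504 of them 1 gene, 328 several genes and 2443 none. The 328 were left out, the 2443 were used for 1 separate count, and the brightest probe set was kept for a gene with several. Because the array medians differed by a ratio of 1.28, quantile normalization was applied to the 27 arrays, on the 5656 tested genes, and log2 was taken after adding 115.33, the 10th percentile.

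limma 3.58.1 in R 4.3.3 fitted 1 mean per group over all 27 arrays, with a variance trend, and p-values were adjusted by the Benjamini-Hochberg method over all tested genes. The fit was tested on simulated data in which far fewer genes changed than here. Its behaviour where most genes change was not tested. The design has 3 control and 3 stressed cultures, so replicate numbers name different cultures in heat and control. Deviations of arrays with the same number correlated at -0.27, 0.29 and 0.22, and the numbers were not taken as pairs. With 3 arrays a group, precision is limited by their number.

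The comparison and the 33 gene lists, with 724 genes of which 709 were measured, were chosen with earlier results of these data known. Named genes were the 15 largest rises and falls with adjusted p under 0.05, groups that do not overlap and a higher group mean above the median level; up to 5 changed and 2 unmoved members of each list; the 10 largest rises and 8 largest falls without a common name; the brightest unmoved genes; the largest late changes; and the reference genes. PHO87, PMA1, PUT4, TFS1, ZPS1, FRE7 and RPL15B fall outside the rule and were chosen after their values were seen. The alternatives tried were other scalings and offsets, a filter on dim genes, other handling of probe sets, no variance trend, fewer arrays, blocks, all controls, and each array left out. Promoter sequences were not used here.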

Additional observations from a re-analysis of the deposited data

Results flagged for a closer look

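Among the 2443 probe sets that the annotation gives no gene, fitted together with all 9275 probe sets that are not controls, 91 (3.72%) were at least 2-fold higher after 10 min of heat and 53 (2.17%) were lower, against 7.88% and 7.54% of all fitted probe sets. They were singled out because no comparison of the report uses them. The largest rise had 2143, 1878 and 2480 in heat and 86.2, 79.3 and 104 in controls, a log2 fold of 4.04 ± 0.11 (limma). The groups do not overlap for it. The largest fall was -2.18 ± 0.09, with 568, 776 and 698 in heat and 3491, 3129 and 3061 in controls. What these probe sets detect is not given by the tables used here. Groups of 3 arrays are too small for a search for single outlying arrays.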

How the results depend on the processing

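Of the named genes, no called one turned round in direction under the alternatives run. Without an offset the genes changed at least 2-fold numbered 688 up and 652 down, and 1606 genes had not moved, since the offset shrinks the folds of dim genes. With only the 2828 genes above the median level, so fewer genes by construction, 879 were called up and 1249 down, 276 rose and 254 fell at least 2-fold, 1039 had not moved, and 38 genes without a common name rose at least 2-fold. With the replicate number as a block, 454 rose and 425 fell at least 2-fold, as without it, and ARO4 lost its call at -0.22 (adjusted p = 0.0812). Leaving out 1 array at a time gave 430 to 478 rises and 399 to 456 falls of at least 2-fold. With protein-coding genes alone, an alternative added after seeing the data, 60 rises and 16 falls remained among genes without a common name.

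Of 176 genes named, 165 kept their side of the threshold under every alternative that tested them. The exceptions were all small changes: LYS20, ARO4, TPI1, POM33, CCW12 and RPS26A lost their calls under some, and CDC19, ADH1, PIR3, YAP6 and TDH3 gained one. Of 1188 list counts under an alternative, 76 moved by over 1.5 times, 37 of them with the dimmer genes left out. Rises made up 51.6% of the changes past 2-fold, and 48.8% with the deposited scaling. Levels near the background set a floor under which falls cannot be measured.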
